A study of Mus musculus with 6 samples.

Results

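Mitosis and spindle genes encode the proteins that take a cell from the end of DNA synthesis through chromosome segregation and cytokinesis: the kinase Cdk1 with its cyclins, the spindle checkpoint, the kinetochore, condensin, the mitotic kinesins and the cytokinesis machinery. The group was defined by gene symbol, as a list of 56 genes. Of these, 55 had a probe set paired in the platform annotation with that gene alone, out of 18194 genes read this way, and Ccnb1 had none and has no value here. Where a gene had several such probe sets, the brightest across the 6 arrays on average was read. All 55 genes passed a filter that asked for a highest value of at least 7.95 log2 units, the median of all values, which 13242 genes passed in all.

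The arrays followed C2C12 cells, a mouse skeletal myoblast line that stops dividing and fuses into muscle fibres when serum is lowered. Parental cells were collected in growth medium with 10% fetal bovine serum, at day 0 just after a confluent culture was moved to differentiation medium with 2% horse serum, and after 2 and 4 days in that medium. A stable line with a short hairpin RNA against Rp58 (shRp58) and a stable control-vector line, called both a LacZ vector and a control hairpin in the labels, were collected at day 0. Both lines had been transfected with a Lipofectamine reagent and selected for 2 weeks in G418 at 500 µg/ml, and the labels do not say whether they are pools or single clones. Each group was 1 array, so no difference was tested and none carries a replicate error.

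In a dividing cell the transcripts of this group rise in G2 phase and fall after division, and many of their proteins are cleared at mitotic exit by the anaphase-promoting complex (APC/C), a ubiquitin ligase. When myoblasts differentiate they leave the cell cycle for good, and promoters of many mitotic genes are then held silent through a short element called the cell cycle genes homology region (CHR), often found near CCAAT boxes, which the factor NF-Y binds. Rp58, now named Zbtb18, is a zinc finger repressor of transcription.

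All values are log2 expression. The medians of all probe sets were 8.26 to 8.27 on the 4 time-course arrays and 7.15 on both stable-line arrays, so levels are compared within each of these sets unless said otherwise. Zbtb18 stood at 11.18, 11.88, 12.86 and 13.06 in growth medium and at days 0, 2 and 4, and at 11.16 in shRp58 cells, against 11.69 in control-vector cells. The targeted gene was thus lower in the line labelled shRp58, by a difference of -0.53, which is 1.44-fold in size. This value lay inside the central 95% of all genes for the same 2 arrays, which ran from -0.55 to 0.46. Of 18 muscle markers all passed the filter, and their median level was 14.39 at day 4, against 10.25 in growth medium. Of 15 markers of other cell types 8 passed the filter, led by the epithelial Epcam, which was at 11.78 at day 4 and 11.86 at day 0.

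The time course asks how the mitotic programme changed as cells went from growth to muscle fibres. At day 2 all but 1 of the 55 genes were at least 2-fold lower than at day 0, and the same held at day 4. The exception both times was Bub3. The median difference was -2.03 for day 2 minus day 0 and -2.54 for day 4 minus day 0, a 4.09-fold and a 5.83-fold reduction. No gene of the group was 2-fold higher at either time, where 2.67% of all genes were at day 2 and 3.83% at day 4. All 55 lay below 0 at day 2, against 48% of all genes above 0. In these bulk cultures, fewer dividing cells and less of each transcript per cell cannot be told apart.

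These counts of 54 of 55 stand against 2.96% of all 13242 genes past the filter that were at least 2-fold lower at day 2 and 5.66% at day 4, and the medians of all genes were -0.01 and -0.04. The loss was deep as well as wide: 43 of the 55 genes were at least 4-fold lower at day 4, out of 155 genes of any kind, and 14 were at least 8-fold lower. Of the 100 genes with the lowest day 4 differences, 36 belonged to the group. The values of day 2 and day 4 both lay below those of growth medium and day 0 for every one of the 55 genes, Bub3 included. The share of all genes with this order was not counted, so this count has no background beside it. Over the same interval 12 of the 18 muscle markers were at least 2-fold higher at day 2, with a median of 1.35, and the part of one set of changes in the other was not tested. At day 4 the highest muscle differences were those of Myh8 (5.86), Mef2c (3.67) and Tnnt3 (3.25), and the lowest those of Myf5 (-1.29), Myod1 (0.23) and Des (0.35).

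**Figure D1:**
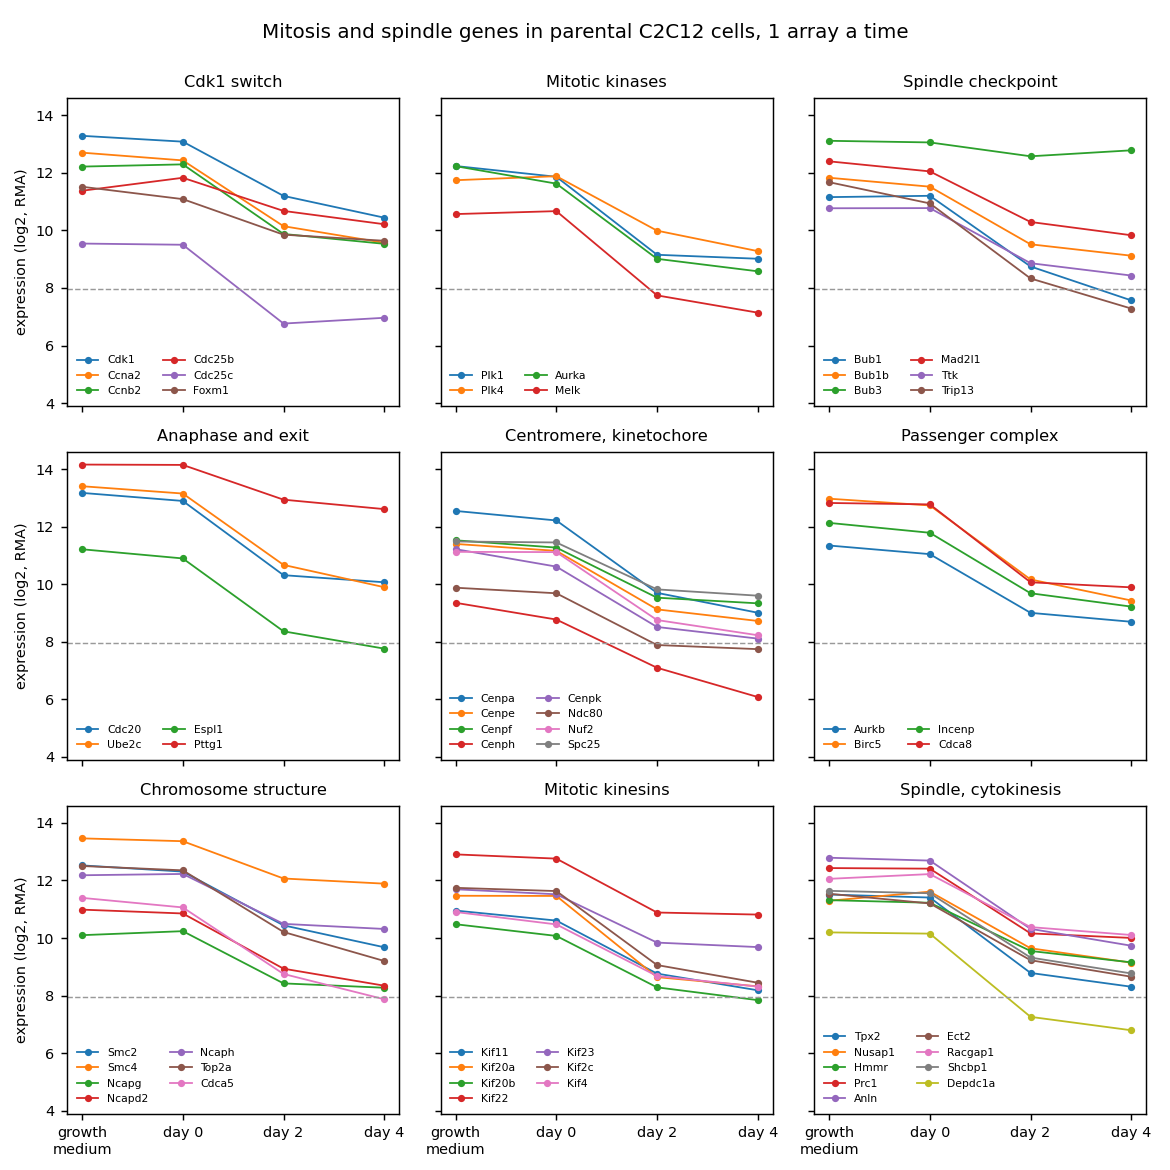
Expression (log2) of the 55 mitosis and spindle genes on the 4 time-course arrays, in 9 panels by role, with 1 line a gene, 1 array a time point and a dashed line at 7.95, the level of the filter. The lines run nearly level between growth medium and day 0 and step down at day 2 in every panel, and Bub3 in the spindle checkpoint panel stays near its starting level.

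Nearly all of this happened after the change of medium. Between growth medium and day 0 no gene of the group was 2-fold apart, where 0.317% of all genes were lower and 2.91% higher. The 2 values lay within 0.5 of each other for 51 of 55 genes, a share not counted over all genes. Only 1 gene of the group lay outside the central 95% of all genes in this step, which ran from -0.61 to 1.06. The median was -0.15, with 10 of the 55 genes above 0 and 45 below, against a median of 0.10 and 61.2% above and 38.7% below 0 for all genes. Quantile normalization of the 4 arrays moved the median of the group in this step to -0.36, with 2 genes above 0 and 53 below, and that of all genes to -0.03, with 0.537% of all genes at least 2-fold lower and 2.06% higher. The muscle markers had already moved by then, 14 of 18 standing at least 2-fold above growth medium at day 0. Of the difference between growth medium and day 4, a median of 6.82% was present at day 0 and 82.9% at day 2, over the 54 genes at least 2-fold lower at day 4 than in growth medium. After quantile normalization the median share at day 0 was 13.4% within the set of 4 arrays and 13.7% over all 6. The share at day 2 ran from 60.2% for Cdc25b to 108% for Cdc25c, a value above 100 because Cdc25c was lowest at day 2.

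From day 2 to day 4 the group stood a little lower again, with a median of -0.44 and 53 of 55 genes below 0. Only 4 genes were at least 2-fold lower in this step, where 0.808% of all genes were: the checkpoint genes Bub1 (-1.18) and Trip13 (-1.04), the centromere gene Cenph (-1.02) and the topoisomerase Top2a (-1.01). Cdc25c and Bub3 were the 2 genes above 0, at 0.20 and 0.21, where 43.9% of all genes lay above 0. By day 4 the values of 10 genes had dropped under 7.95, among them Cenph, Depdc1a, Cdc25c, Melk, Trip13 and Bub1, so the sizes of their differences are not exact.

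Since these genes moved together, their promoters were read for letters that the grouping did not use. RefSeq windows of 300 bases on the GRCm38.p6 build, 250 before to 50 after a gene start, were at hand for 47 of the 56 genes, 52 windows in all, and for 27025 genes in all, with 32851 windows. No window is used here for Aurkb, Ccna2, Cdc25c, Foxm1, Incenp, Kif20a, Shcbp1, Smc4 and Tpx2. Each window was searched on both strands for CCAAT, the NF-Y box, for TTTGAA, the common form of the CHR, and for TTCGAA, a variant of it. None of these motifs contains another. The following stretches, the 120 bases just before the start, show 6 genes with both elements close to the start, then Cdca5 with a pair of TTTGAA, then Bub3, which missed 2-fold, and Melk, which was far lower by day 2 and holds none of the motifs. Capitals mark matches on either strand, so that ATTGG is CCAAT and TTCAAA is TTTGAA read on the other strand.
Cdk1, chr10:69352913-69353032, minus strand: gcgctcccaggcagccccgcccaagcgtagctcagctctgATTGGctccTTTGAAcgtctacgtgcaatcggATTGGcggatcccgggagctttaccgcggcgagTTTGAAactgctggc
Cdc20, chr4:118437344-118437463, minus strand: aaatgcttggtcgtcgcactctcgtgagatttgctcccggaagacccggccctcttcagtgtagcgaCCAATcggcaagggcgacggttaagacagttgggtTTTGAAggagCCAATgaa
Ube2c, chr2:164769809-164769928, plus strand: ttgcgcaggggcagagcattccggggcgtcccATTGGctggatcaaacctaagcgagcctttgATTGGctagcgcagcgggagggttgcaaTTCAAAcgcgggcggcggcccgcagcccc
Top2a, chr11:99024190-99024309, minus strand: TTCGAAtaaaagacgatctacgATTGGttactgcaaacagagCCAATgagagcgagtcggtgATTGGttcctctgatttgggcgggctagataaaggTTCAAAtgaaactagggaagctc
Kif11, chr19:37376262-37376381, plus strand: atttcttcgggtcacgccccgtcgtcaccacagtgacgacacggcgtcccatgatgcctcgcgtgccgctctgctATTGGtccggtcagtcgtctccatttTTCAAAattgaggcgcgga
Espl1, chr15:102296173-102296292, plus strand: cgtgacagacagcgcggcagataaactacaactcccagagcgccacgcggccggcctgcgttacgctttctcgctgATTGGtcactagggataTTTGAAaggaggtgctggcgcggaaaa
Cdca5, chr19:6084977-6085096, plus strand: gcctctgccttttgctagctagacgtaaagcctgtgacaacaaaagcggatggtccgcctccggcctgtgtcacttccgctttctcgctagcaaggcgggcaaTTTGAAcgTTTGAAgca
Bub3, chr7:131560250-131560369, plus strand: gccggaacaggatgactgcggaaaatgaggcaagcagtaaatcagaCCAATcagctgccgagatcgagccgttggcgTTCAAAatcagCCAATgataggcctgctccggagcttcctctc
Melk, chr4:44300797-44300916, plus strand: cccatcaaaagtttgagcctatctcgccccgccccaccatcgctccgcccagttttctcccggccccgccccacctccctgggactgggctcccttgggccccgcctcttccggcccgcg

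TTTGAA was present in 35 of 52 windows of the group (67.3%, exact 95% interval 52.9% to 79.7%, counting error only), against 17.9% of all windows. The interval treats windows as separate, though some genes have overlapping windows that share a match. By gene, 32 of 47 (68.1%) had TTTGAA in a window, against 20.2% of all genes with a window. CCAAT was present in 38 of 52 (73.1%), against 37.4%. TTCGAA was in 5 windows (9.62%), against 1.56%. Both CCAAT and TTTGAA stood in 30 of the 52 windows, and in 6.95% of all windows. The windows of the group had a median GC content of 58.8%, above the 52.7% of all windows. The group was not alone in this: of 63 windows of the other mitosis genes listed, TTTGAA was in 32 (50.8%), CCAAT in 43 (68.3%) and TTCGAA in 7 (11.1%). Among replication genes, many of them also lower in the time course, TTTGAA was in 8 of 43 windows (18.6%) and CCAAT in 23 (53.5%). These shares are descriptions and were not tested.

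The TTTGAA matches of the group also lay close to the start: 35 of 45 began within 50 bases of it (77.8%), against 25.3% of the matches in all windows. The CCAAT matches lay further out, with a median of -66 bases. Within 50 bases of the start began 27 of 78 (34.6%), not far from the 28.2% of the CCAAT matches in all windows. Before the start began 75 of 78, a share not counted over all windows, where 250 of the 300 bases of a window lie before it. Genes with and without the letters had medians close to each other. At day 4 the median difference was -2.53 in the 32 genes with TTTGAA in a window and an expression value and -2.55 in the 14 without it, and for shRp58 minus control vector it was 0.73 with the letters and 0.70 without them. Bub3 holds both elements, and Melk, Birc5, Mad2l1, Ncaph, Nuf2, Nusap1, Plk4 and Pttg1 hold none of the 3 motifs in their windows.

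**Figure D2:**
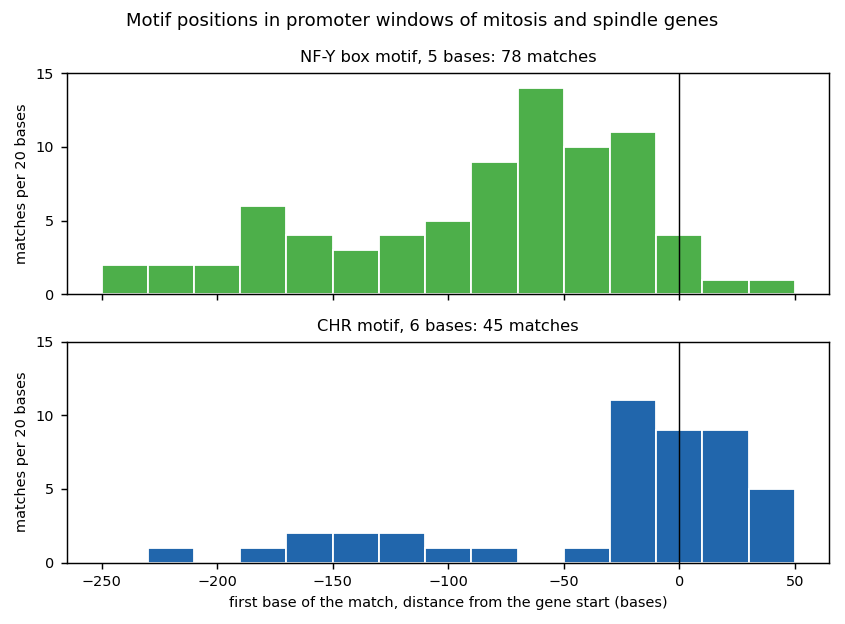
Number of matches per 20 bases (vertical axis) by distance of the first base of the match from the gene start (horizontal axis), over the 52 promoter windows, for the NF-Y box (CCAAT, 78 matches) above and the CHR (TTTGAA, 45 matches) below. Some genes have overlapping windows and so count a match more than once. The CHR matches pile up within 50 bases of the start, and the NF-Y boxes lie mostly before it, as do 250 of the 300 bases of a window.

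Cdk1 is the kinase that drives entry into mitosis. It stood at 13.28 in growth medium and 13.08, 11.20 and 10.44 on days 0, 2 and 4. It was 3.69-fold lower at day 2 than at day 0 and 6.23-fold lower at day 4. Its cyclin partners went the same way. Ccna2, cyclin A2 of S and G2 phase, stood at 12.70, 12.43, 10.15 and 9.57 on the same arrays, and Ccnb2, a mitotic B-type cyclin, at 12.22, 12.29, 9.88 and 9.53. Their day 4 differences were -2.86 for Ccna2 and -2.76 for Ccnb2. The phosphatases Cdc25b and Cdc25c remove inhibitory phosphates from Cdk1, and their courses differed. Cdc25c read 9.54, 9.50, 6.76 and 6.96, so that it was at its low level by day 2. Cdc25b read 11.38, 11.83, 10.68 and 10.21, highest at day 0, with a day 4 difference of -1.61. Foxm1, a transcription factor that activates G2 and M phase genes, read 11.51, 11.09, 9.85 and 9.64. Its day 4 difference of -1.45 was the second smallest of the group by the probe set read, and 2 other probe sets of Foxm1 above the filter gave -1.80 and -2.46.

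The mitotic kinases were among the most reduced, with a median of -2.95 over 4 genes at day 4. Melk, a kinase of the AMPK family that is abundant in dividing cells, read 10.57, 10.67, 7.74 and 7.14 from growth medium to day 4 and had the lowest day 2 difference of the 55 genes (-2.93). Plk1, which acts at centrosomes and kinetochores through mitosis, read 12.24, 11.86, 9.15 and 9.01. Aurka, the spindle pole Aurora kinase, read 12.23, 11.62, 9.01 and 8.58. Of the difference between growth medium and day 4, 82.5% was present at day 2 for Melk, 95.7% for Plk1 and 88.1% for Aurka. The share was 71.2% for Plk4, and the median of the group was 82.9%. Plk4, which licenses centriole duplication, had the smallest change of the 4 at -2.60, with levels of 11.74, 11.88, 9.99 and 9.28.

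The spindle checkpoint holds anaphase until every chromosome is attached, and its genes held both the largest and the smallest changes of the group. Trip13, an ATPase that recycles the checkpoint protein Mad2, read 11.67, 10.94, 8.33 and 7.29, and its day 4 difference of -3.65 was 12.6-fold. It was also the gene furthest down between growth medium and day 0 (-0.74). Bub1, a kinetochore kinase of the checkpoint, read 11.16, 11.20, 8.75 and 7.57, a day 4 difference of -3.63. Bub1b, Mad2l1 and the checkpoint kinase Ttk had day 4 differences of -2.40, -2.22 and -2.34. Bub3, which anchors Bub1 and Bub1b at kinetochores, stood apart at 13.11 in growth medium and 13.05, 12.57 and 12.78 on days 0, 2 and 4. Its differences from day 0 were -0.48 and -0.27. Another bright probe set of Bub3 gave -0.65 and -0.28, so neither passed 2-fold.

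For anaphase and mitotic exit, Cdc20 activates the APC/C, Ube2c is an E2 enzyme that works with it, Espl1 (separase) cuts cohesin and Pttg1 (securin) holds separase inactive. Cdc20 read 13.17, 12.89, 10.31 and 10.07 and Ube2c 13.40, 13.15, 10.67 and 9.90 in growth medium and at days 0, 2 and 4. Their day 4 differences were -2.82 and -3.25. Espl1 read 11.21, 10.90, 8.36 and 7.76 and ended under 7.95. Securin kept more of its signal, at 14.16, 14.14, 12.94 and 12.61 and a day 4 difference of -1.53, yet another probe set of Pttg1 with a level of 12.50 at day 0 gave -3.43. The probe set read for Pttg1 has an ID of the type that can match more than one transcript.

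By the probe sets read, all 8 centromere and kinetochore genes were at least 2-fold lower at both later times, with medians of -1.91 and -2.47. Cenpa, the histone H3 variant that marks centromeres, had the largest day 4 difference of them (-3.20), with levels of 12.54, 12.21, 9.70 and 9.01. Its probe sets went past 2-fold in opposite directions, which no other gene of the group did, since a dimmer one read 9.86, 8.47, 9.39 and 9.53 and so was 1.06 above day 0 at day 4. Cenph and Cenpk belong to the inner kinetochore network, and both were already lower by more than 0.5 at day 0 (-0.58 and -0.61). Cenph, the dimmest of the 55 genes in growth medium, read 9.35, 8.77, 7.10 and 6.08. Cenpe, a kinetochore motor, and Cenpf, a large kinetochore protein, were at -2.43 and -1.94 at day 4. Dimmer probe sets above the filter missed 2-fold at day 4 for Cenpf (-0.81 and -0.92) and Cenpk (-0.29), while that of Cenpe gave -3.43. Of the Ndc80 complex, which binds microtubule ends, Nuf2 was at -2.89, Ndc80 at -1.94 and Spc25 at -1.85. Spc25 had the smallest change of the 8, with 11.48, 11.45, 9.82 and 9.60, and a dimmer probe set of Spc25 gave 0.24 at day 4.

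The chromosomal passenger complex corrects faulty attachments and guides cytokinesis, and its 4 genes were all at least 2-fold lower at day 2 and day 4. Birc5 (survivin) read 12.97, 12.74, 10.17 and 9.43, Aurkb, its kinase, 11.34, 11.04, 9.01 and 8.70, Incenp, its scaffold, 12.13, 11.79, 9.69 and 9.22, and Cdca8 (borealin) 12.82, 12.77, 10.07 and 9.89. Day 4 differences ran from -3.30 for Birc5 to -2.35 for Aurkb by the probe sets read. Others above the filter gave -2.18, -1.32 and -1.48 for Incenp, -3.30 and -2.98 for Cdca8 and -2.93 for Aurkb. No gene of the 4 differed by more than 0.5 between growth medium and day 0.

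Among genes of chromosome structure, Top2a, the topoisomerase that untangles sister DNA, read 12.50 in growth medium and 12.35, 10.21 and 9.20 on days 0, 2 and 4. Cdca5 (sororin), which protects sister cohesion, read 11.39, 11.06, 8.75 and 7.87 and had the largest day 4 difference of the 7 (-3.19). Smc2 and Smc4 form the ATPase pair of condensin. By the probe sets read these partners in 1 complex differed in size, Smc2 at -2.63 and Smc4 at -1.47 at day 4. That gap depended on the probe set. A dimmer one of Smc2 above the filter gave -1.81, and others of Smc4 gave -1.89 and -1.65. Smc4 stayed bright, at 13.46, 13.36, 12.07 and 11.89. The condensin I subunits Ncapd2, Ncapg and Ncaph were at -2.51, -1.96 and -1.91. A dimmer probe set of each gave -0.12 for Ncapd2, -3.23 for Ncapg and -2.67 for Ncaph. Of the condensin II subunits, which are not members, Ncapg2 and Ncapd3 were at -1.76 and -1.49, and Ncaph2 was at -0.07 with levels of 12.68, 12.87, 12.69 and 12.80.

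All 7 mitotic kinesins were at least 2-fold lower at day 2 and day 4. Kif2c, which takes microtubules apart at kinetochores, had the largest day 4 difference (-3.18) at 11.74, 11.63, 9.06 and 8.45, followed by Kif20a, a midzone motor, at -3.14. Kif11, which pushes the spindle poles apart, read 10.95, 10.61, 8.77 and 8.19. The remaining motors, Kif20b, the chromosome motors Kif4 and Kif22, and Kif23 of the centralspindlin complex, were at -2.23, -2.16, -1.94 and -1.83. Kif23 had the smallest change by the probe set read, at 11.69, 11.52, 9.84 and 9.69. This order of the kinesins depended on the probe set. At day 4 others above the filter gave -3.21 for Kif23, -2.49 and -3.33 for Kif22 and -2.53 and -1.19 for Kif2c. Those of Kif11 gave -2.27 and -1.65.

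The 9 genes of the spindle and of cytokinesis had a median of -2.54 at day 4. Depdc1a had the largest change and read 10.20, 10.15, 7.26 and 6.80. Tpx2, which activates Aurka on the spindle, read 11.51, 11.41, 8.79 and 8.31 by 1 probe set and 10.80, 10.21, 8.05 and 7.99 by another. However, the other 2 probe sets of Tpx2 differed by 0.36 and 0.28 at day 2, so its probe sets do not give 1 answer. Anln (anillin), Prc1, which bundles midzone microtubules, and Ect2, which acts in cytokinesis, were at -2.96, -2.41 and -2.54 at day 4. Shcbp1, a midbody protein, was at -2.79. Nusap1, a spindle protein, and Racgap1, the partner of Kif23, were at -2.47 and -2.12, and both were slightly higher at day 0 than in growth medium. A dimmer probe set of Nusap1 gave -0.26 at day 4. Hmmr, a spindle assembly factor, had the smallest change of the 9 (-2.07), at 11.32, 11.23, 9.55 and 9.16.

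**Figure D3:**
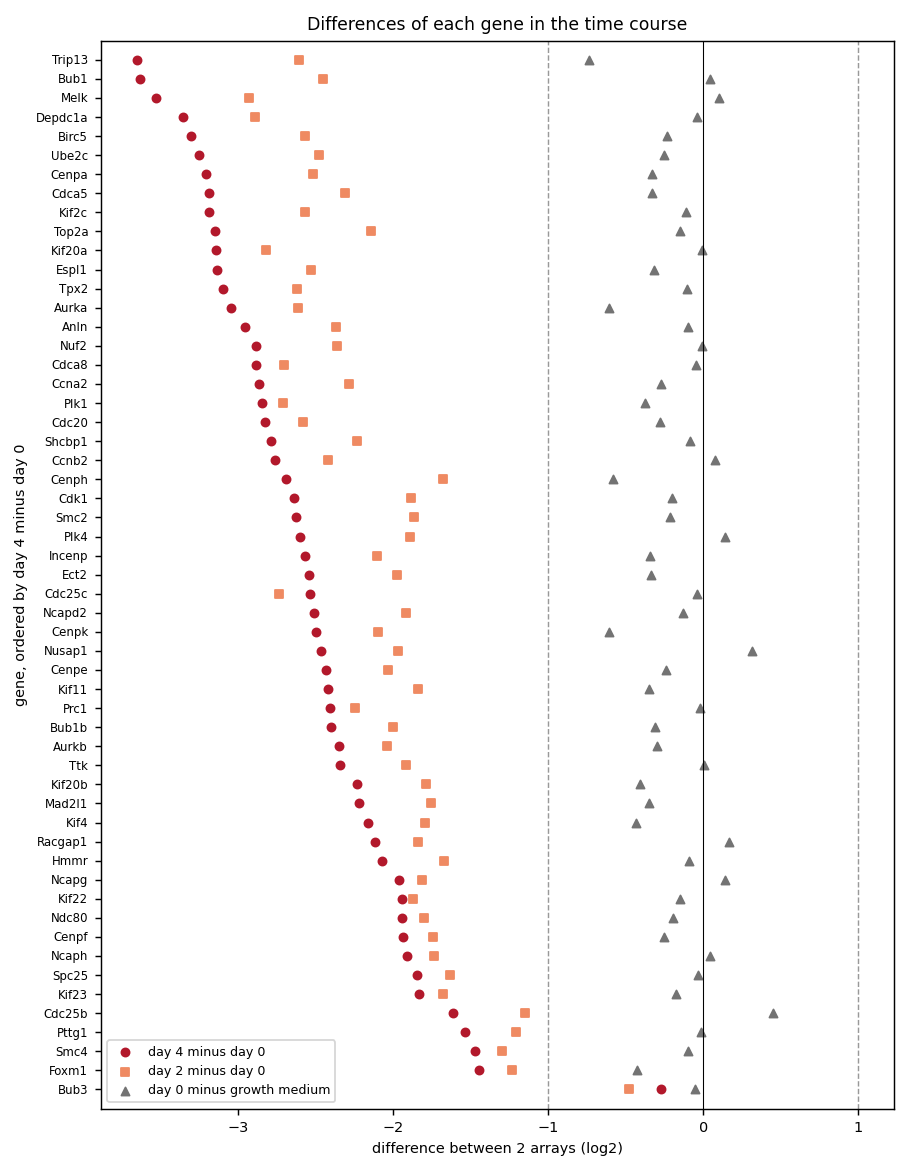
Difference between 2 arrays (log2, horizontal axis) for each of the 55 genes, ordered by day 4 minus day 0, with circles for day 4 minus day 0, squares for day 2 minus day 0 and triangles for day 0 minus growth medium, and dashed lines at 2-fold. The triangles lie between -0.74 and 0.45, and all circles and squares but those of Bub3 lie beyond 2-fold on the lower side.

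Other genes of the same machinery, 69 listed and 67 read, were less uniform. Of the 66 that passed the filter, 47 were at least 2-fold lower at day 2 and 55 at day 4, with medians of -1.47 and -1.92. Cep55, a midbody protein, the proliferation marker Mki67 and the kinetochore gene Ska1 were lowest at day 4 (-3.18, -3.08 and -3.01). At the other end stood the kinetochore gene Nsl1 (0.21), the kinesin Kif15 (0.14) and Ncaph2 (-0.07). The core of the APC/C and its partners hardly moved: of 17 genes 2 were at least 2-fold lower at day 4, the inhibitor Fbxo5 (-2.82) and the activator Fzr1 (-1.15), and the median was -0.22. Next lowest was Anapc11 (-0.63), and highest were Anapc7 (0.34), Ube2d1 (0.11) and Anapc16 (0.09). Cohesin and its loaders had 0 of 12 genes past 2-fold and a median of -0.25, with Pds5a (-0.64), Smc3 (-0.51) and Stag1 (-0.49) lowest and Mau2 (0.35), Wapl (0.06) and Esco1 (0.06) highest. Replication genes lay between, with 32 of 45 at least 2-fold lower at day 4 and a median of -1.48, with Cdc6 (-3.19), Gmnn (-3.12) and Tk1 (-3.01) lowest and Fen1 (-0.48), Gins4 (-0.48) and Gins3 (-0.54) highest.

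Among regulators of these promoters, the pocket protein gene Rbl1 and the activator Mybl2 (B-Myb) were lower at day 4 (-1.78 and -1.85), as were the repressors E2f7 (-2.78) and E2f8 (-1.10) and the activator E2f1 (-1.43). These 5 of 22 genes passed 2-fold. At the upper end stood Rb1, the retinoblastoma gene, at 0.93, E2f6 at 0.49 and Tfdp2 at 0.08. Rbl2, the pocket protein p130 of the DREAM complex, was at 0.89 for day 0 minus growth medium, 0.59 for day 2 minus day 0 and -0.03 for day 4 minus day 0. E2f4, Tfdp1 and Rbbp4, which also belong to DREAM, were at -0.09, -0.38 and -0.09 at day 4. The MuvB genes Lin9, Lin37, Lin52 and Lin54 were at -0.32, 0.01, 0.00 and -0.62. The NF-Y genes Nfya, Nfyb and Nfyc were at -0.33, -0.66 and -0.31. Of 12 genes that restrain Cdks or the cycle, Gadd45a (2.35) and the Cdk inhibitor Cdkn1c (2.24) were at least 2-fold higher at day 4, and Cdkn1a missed that mark at 0.99. Wee1, the kinase that inhibits Cdk1, was at -0.99, followed by Pkmyt1 (-0.50) and Cdkn2d (-0.46).

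The stable lines ask which genes differed between shRp58 cells and control-vector cells at day 0. All 55 mitosis and spindle genes were higher in shRp58 cells, by a narrow margin: the differences ran from 0.29 to 1.01, with a median of 0.74, a 1.67-fold size. Only Shcbp1 and Kif11 reached 2-fold by the probe set read, where 0.0529% of all genes did, and 47.5% of all genes lay above 0. Which genes passed depended on the probe set. Other probe sets of Kif11 gave 0.78 and 0.73, while others of Kif22 gave 1.03 and 1.01 and another of Ncapg gave 1.10. At 1.5-fold, 43 of the 55 genes were higher, out of 189 genes of any kind, and 29 of the 100 highest differences belonged to the group. Of the 55 genes, 52 lay outside the central 95% of all genes, which ran from -0.55 to 0.46. Over the same arrays all 18 muscle markers were lower in shRp58 cells, 9 of them at least 2-fold, with a median of -0.98, and their part in the result was not tested. Of all genes, 51.3% lay below 0 and 0.619% were at least 2-fold lower.

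Shcbp1 stood at 10.22 in shRp58 cells, against 9.21 in control-vector cells, and Kif11 at 9.58 in shRp58 cells, against 8.57 in control-vector cells. These 2 genes passed 2-fold, at 1.01 and 1.01. Just below came Cdca5 with a difference of 0.999, at 9.99 in shRp58 cells, against 8.99 in control-vector cells. Melk (0.99) read 9.70 in shRp58 cells, against 8.71 in control-vector cells. Smc2 (0.97) read 11.12 in shRp58 cells, against 10.15 in control-vector cells. By the probe sets read, the 5 smallest differences belonged to Bub3, Cdc25b, Pttg1, Smc4 and Foxm1. These were also the 5 genes least reduced at day 4. For Pttg1 and Foxm1 this place depended on the probe set. Others of Pttg1 above the filter gave 0.75 with -3.43 at day 4, and 0.17 with -1.19. Others of Foxm1 gave 0.65 with -2.46, and 0.50 with -1.80. Bub3 (0.29) read 12.19 in shRp58 cells, against 11.90 in control-vector cells. Cdc25b (0.33) read 10.76 in shRp58 cells, against 10.43 in control-vector cells, and Pttg1 (0.44) 13.27 in shRp58 cells, against 12.84 in control-vector cells. These 3 genes lay above the median level of the group in both lines. Smc4 (0.49) read 12.10 in shRp58 cells, against 11.61 in control-vector cells, and Foxm1 (0.50) 9.72 in shRp58 cells, against 9.22 in control-vector cells.

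By role, the passenger complex was the most even by the probe sets read, with 4 differences between 0.82 and 0.89. Other probe sets above the filter gave 0.69, 0.35 and 0.39 for Incenp, 0.75 and 0.85 for Cdca8 and 0.88 for Aurkb, so this evenness depended on the probe set. Birc5 read 11.72 in shRp58 cells, against 10.89 in control-vector cells. The mitotic kinases had the highest median, 0.86, and the Cdk1 switch the lowest, 0.62, although roles overlapped in range. Cdk1 itself read 12.13 in shRp58 cells, against 11.29 in control-vector cells, a difference of 0.84. Ccna2 was at 0.86 and Ccnb2 at 0.55. Top2a stood at 11.75 in shRp58 cells, against 10.81 in control-vector cells, a difference of 0.95. Checkpoint genes other than Bub3 lay between 0.72 for Mad2l1 and 0.97 for Trip13. Kinetochore genes lay between 0.53 for Cenpf and 0.85 for Cenph.

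**Figure D4:**
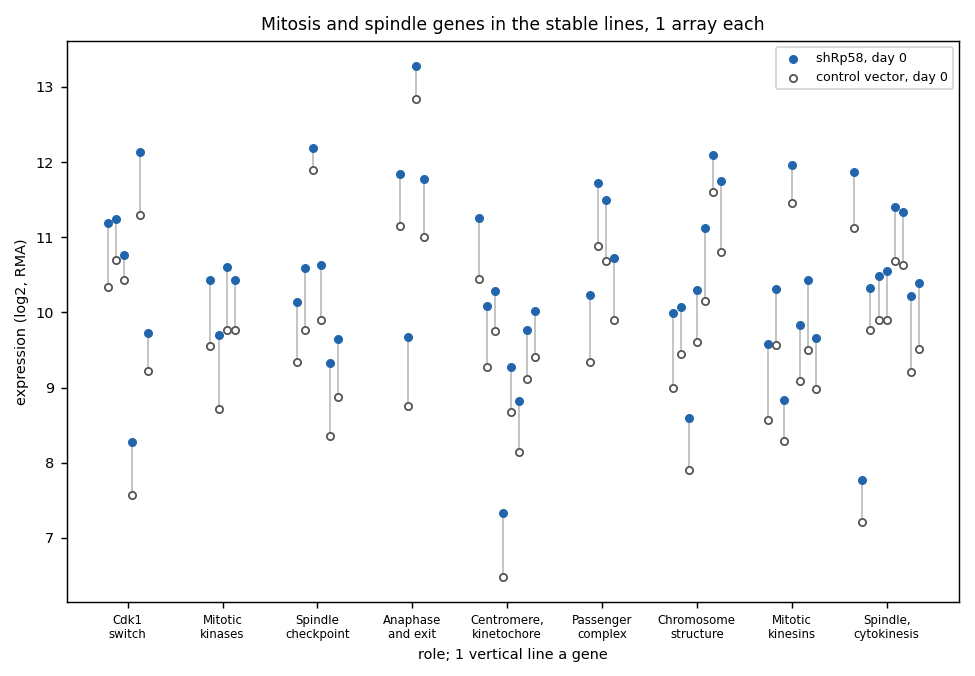
Expression (log2) in shRp58 cells (filled) and control-vector cells (open) at day 0, 1 array each, with 1 vertical line a gene, grouped by role. The filled point lies above the open one for all 55 genes, with the shortest line for Bub3 at 0.29.

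Genes that lost more by day 2 tended to differ more between the lines. Across the 55 genes, shRp58 minus control vector ran against day 2 minus day 0 with Pearson r = -0.601 and a Spearman rank correlation of -0.513, and without Bub3 r was -0.529 over 54 genes. These 2 differences share no array, but each pair of points comes from the same probe set and the genes are not independent, so this is a description. The difference between the lines was a median of 36.2% of the size of the day 2 difference, from 19.1% for Depdc1a to 59.5% for Bub3. Of the other lists, all 66 further mitosis genes and all 45 replication genes were above 0, with medians of 0.61 and 0.58. APC/C genes (0.02) and cohesin genes (0.13) had medians near 0, and their highest values were those of Fbxo5 (0.74) and Esco2 (0.70). E2f7 and Mybl2 were at 0.95 and 0.88, and Rb1 at -0.55.

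**Figure D5:**
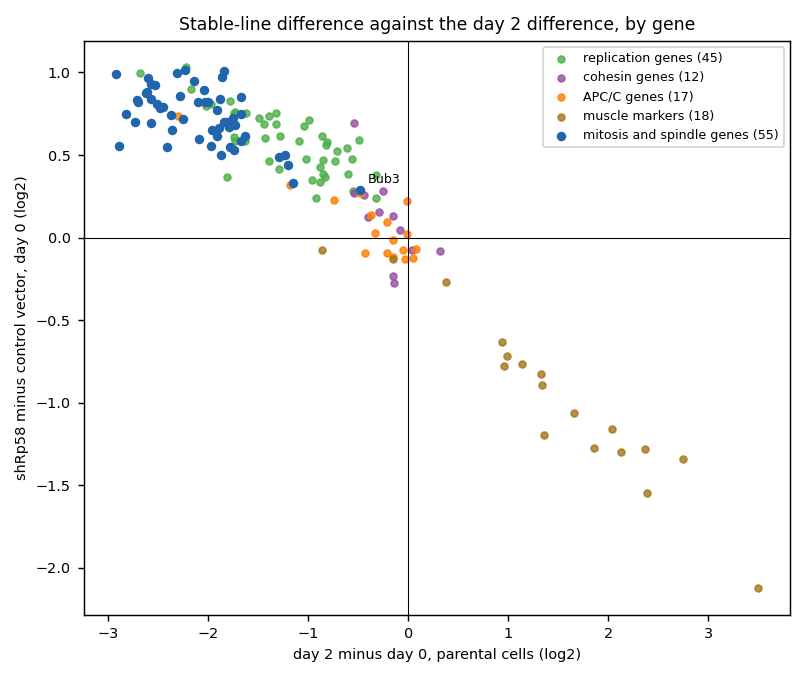
Difference of shRp58 minus control vector at day 0 (log2, vertical axis) against day 2 minus day 0 in parental cells (log2, horizontal axis), 1 point a gene, for the 55 mitosis and spindle genes and 4 other lists. The mitosis and spindle genes sit at the upper left with Bub3 nearest to 0, APC/C and cohesin genes sit mostly near 0, and most muscle markers lie at the lower right.

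Where the lines stood relative to parental cells can be read only across the sets of arrays, after quantile normalization of all 6. On that scale shRp58 cells minus parental day 0 cells had a median of -0.12 with 40 of 55 genes below 0. Control-vector cells minus parental day 0 cells had a median of -0.87 with all 55 below 0. For Cdk1 the values were -0.10 in shRp58 cells and -0.92 in control-vector cells, both relative to parental cells. For Top2a they were 0.32 in shRp58 cells and -0.61 in control-vector cells. Among 2782 other genes of like parental level (10.99 to 12.30), the median was -0.01 in shRp58 cells and -0.04 in control-vector cells. Of those genes, 52.0% lay below 0 in shRp58 cells and 55.0% in control-vector cells. The muscle markers ran the other way, with medians of 0.17 in shRp58 cells and 1.01 in control-vector cells. With 1 array each, line, clone, selection and array set cannot be told apart in these values.

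The group was read by 128 probe sets in all, and 109 of them reached 7.95 on some array. Of those, 96 were at least 2-fold lower at day 4 than at day 0 and 108 were higher in shRp58 cells than in control-vector cells. Of the 19 that stayed below 7.95, 2 were at least 2-fold lower at day 4, and their median was -0.28. The single probe set above the filter that was 2-fold higher at day 4 was the one of Cenpa already described.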

How the data were processed

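The 6 C2C12 samples, 1 array a group, were hybridised to Affymetrix mouse arrays with 10 µg of cRNA and summarised by the authors with RMA as log2 values, per the series' design text. The deposited log2 values are used as given. The RMA software, its version and the set of arrays put through it together were not found in the labels or the file. Of 45101 probe sets, 34958 are paired with 1 gene in GEO's platform annotation, 932 with several and 9211 with none. Each of 18194 genes was read by its probe set with the highest mean, and genes whose highest value was under the median of all values were left out. Differences between single arrays were called at 2-fold. The members, lists and alternatives were chosen with earlier results of these data known. Every member may be named. Values by array are given for the members with the largest and smallest day 4 difference in each role, for Cdk1, Foxm1 and Top2a, for the 5 largest and 5 smallest hairpin differences, and for others where a result turned on them, and 3 genes at either end of each list are named by their day 4 difference, except markers of other cell types, of which the brightest is named. E2f1, E2f8, Rbl2 and other DREAM, MuvB and NF-Y genes were named after their values were seen, as were Esco2 and the condensin II genes. The lists were other mitosis genes, APC/C, cohesin, replication, cell cycle transcription, Cdk restraint, muscle and other cell types. Alternatives changed the probe set, scaling, filter and threshold. The scripts were tested on simulated data. Python 3.11.15, numpy 2.4.6, pandas 2.3.3 and scipy 1.17.1 were used. With 1 array a group, precision is limited by that number and no replicate error is known.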

Additional observations from a re-analysis of the deposited data

How the results depend on the processing

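The counts of genes at least 2-fold lower at day 2 and at day 4 relative to day 0, 54 of 55 each, stayed between 49 and 54 at day 2 and between 52 and 54 at day 4 under every alternative run, and the median of shRp58 minus control vector stayed between 0.60 and 0.78. Averaging the probe sets of each gene left 54 genes past the filter, with a day 4 median of -2.15, 1 gene at least 2-fold lower from day 2 to day 4 and 1 gene at least 2-fold higher in shRp58 cells. The count of 4 genes lower from day 2 to day 4 became 2 with each array set to its median and 2 with quantile normalization of all 6 arrays, and 16 at 1.5-fold. The count of 2 genes higher in shRp58 cells became 5 with quantile normalization within each set and 43 at 1.5-fold. At 1.5-fold, 3 genes were lower at day 0 than in growth medium. Taking the brightest probe set within each set of arrays turned Tpx2 to 0.36 at day 2 and 0.067 at day 4, since another probe set then stood for it, and moved r between the hairpin and day 2 differences to -0.39, for which the cause was not tested. Counting genes in place of windows gave 68.1% with TTTGAA and 70.2% with CCAAT. The alternatives that left out probe sets by the ending of their ID, and the count by gene, were chosen after seeing the data. Of the values of single genes under an alternative, 2609 moved by less than the spread of all genes and 129 by more. The other 2, both of Tpx2, were past 2-fold and changed sign. The 2609 include 275 from each of the 1.5-fold threshold and the 2 filter alternatives, which cannot change the difference of a gene. Averaging the probe sets, which can, moved 88 values by more than that spread and 182 by less. Sign changes of any size came to 33, of which 28 were in day 0 minus growth medium, where the differences concerned were at most 0.165 in size. The median share of the growth medium to day 4 difference present at day 0 was 6.82%, and 13.4% or 13.7% with quantile normalization within a set or over all 6 arrays. No paired analysis was possible because each group has 1 array. Differences at single genes cannot be set against replicate error, genes below 7.95 have imprecise differences, and the 2 sets of arrays differ in scale.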
